A study of Mus musculus with 4 samples.

Results

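The insulin-like growth factor (IGF) system was followed through 8 genes in single cells of the mouse Tbx1 lineage: the ligand gene Igf1, the receptor gene Igf1r, the binding protein genes Igfbp2, Igfbp3, Igfbp4 and Igfbp5, and the related genes Igfbp7 and Igfbpl1. They are 8 of the 27514 Ensembl identifiers that all 4 deposited gene tables share, and each was matched by its identifier. The genes were selected on measured values as well as on function, because Igfbpl1 was known from earlier results of these libraries to be lower in progenitors of both knockout libraries. That difference is therefore given below as a description.

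The cells came from Swiss Webster embryos and carried a GFP reporter recombined by Cre from the Tbx1 locus (Rosa26-GFPflox/+). Control cells (Ctrl) were Tbx1Cre/+;Rosa26-GFPflox/+ and conditional knockout cells (cKO) were Tbx1Cre/flox;Rosa26-GFPflox/+. The Cre insertion takes the place of 1 Tbx1 copy, so Ctrl cells also had a single working allele, and the knockout reaches only cells in which the Tbx1 promoter has driven Cre. Tissue was the upper body at embryonic day (E) 8.5 and the pharyngeal apparatus with the heart at E9.5. By the study's own sample summary, the back was included at E9.5. GFP-positive, DAPI-negative cells of several pooled embryos were sorted and captured on the 10x Chromium 3' v2 kit. There was 1 library per group. At E8.5 the Ctrl library held 1434 cells and the cKO library 1090, and at E9.5 they held 5453 and 6266, so genotype cannot be told apart from library, nor stage from dissection and library. No p-value is given for this reason. By the study's own somite counts, cKO embryos at E8.5 were slightly older than Ctrl embryos, so embryo age also runs with genotype there. Intervals are 95% intervals for counting error only.

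Igf1 is a secreted growth factor that signals through the receptor tyrosine kinase encoded by Igf1r. The classical binding proteins, among them Igfbp2 to Igfbp5, hold IGFs in the extracellular space and can either restrict or prolong their access to the receptor. Igfbp7 and Igfbpl1 share the amino-terminal IGFBP domain with them but are regarded as relatives, Igfbp7 binding IGFs weakly. In the pharyngeal region, the mesoderm that carries these genes gives rise to the second heart field of the outflow tract and to the branchiomeric muscles (BrM) of the head.

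A unique molecular identifier (UMI) counts 1 captured transcript end, so counts need no correction for gene length. Levels are UMIs per 1000000 UMIs of shared genes (UPM), summed over the cells of a group in 1 library. Library totals ran from 25391654 UMIs (Ctrl E8.5) to 104773150 UMIs (cKO E9.5), and the median cell had between 15887.5 (cKO E9.5) and 23883 UMIs (cKO E8.5). Cells were put into groups by fixed marker genes, and a group was compared only where each library held at least 30 of its cells. The pharyngeal mesoderm group needed Arg1 and at least 1 of Rdh10 and Vamp8. Values for the 4 libraries are given for Ctrl and then cKO, first at E8.5 and then at E9.5. The group held 602, 535, 670 and 1609 cells. Isl1, Aplnr, Nrg1, Tbx1, Wnt5a and Foxf1, which were not part of its gate, were higher inside than outside it in 4 of 4 libraries. The margin was small for Tbx1 in Ctrl E8.5 (86.8 UPM inside and 86.1 outside) and for Aplnr in cKO E9.5 (7.9 and 6.2). Since the group took 42.0% of Ctrl E8.5 cells, it is called Arg1-positive mesoderm here rather than a progenitor type. The BrM-like group had 60, 35, 389 and 245 cells, and the mesenchyme-like group 467, 279, 2742 and 3530. Of genes outside its gate, Tbx1 was higher inside than outside the BrM-like group in 4 libraries and Ebf3 in 2. In the second heart field gate, which requires Isl1, Tcf21 was higher inside than outside in 4 libraries but Sema3c in 1, and the group is called Isl1-gated. In the mesenchyme-like group Col3a1 was higher inside in 4 libraries and Col1a1 in 3. Pdgfra was higher inside at E9.5 alone, standing at 20.3 UPM inside and 22.4 outside in Ctrl E8.5, and at 30.02 and 34.00 in cKO E8.5, so the E8.5 group, on which the stage ratios of mesenchyme-like cells rest, is less clearly marked. At E8.5 the mesenchyme gate genes summed to 688.9 and 637.0 UPM in mesenchyme-like cells and to 661.3 and 618.8 in Arg1-positive mesoderm. This sum hardly separated the 2 groups at that stage. Libraries shared between 2 and 55 barcodes, the most between Ctrl E9.5 and cKO E9.5. Tbx1 itself was not lower in the libraries labelled cKO. It stood at 86.8, 136.9, 114.2 and 164.3 UPM in Arg1-positive mesoderm, and since a 3' tag can lie outside the floxed part, these counts do not check the deletion.

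In each comparison a gene is called different when it is at least 2-fold from the median gene of the same group, among genes with at least 20 UMIs over both sums. The median gene stood close to equality between genotypes at E8.5, with log2 cKO/Ctrl between 0.03 and 0.05. At E9.5 it was lower in cKO, by -0.25 in Arg1-positive mesoderm and -0.24 in BrM-like cells, and between stages of Ctrl it rose by 0.22 to 0.34, so differences are also given relative to it. The cKO E9.5 reads had been counted against another gene table than the other 3 libraries.

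**Figure D1:**
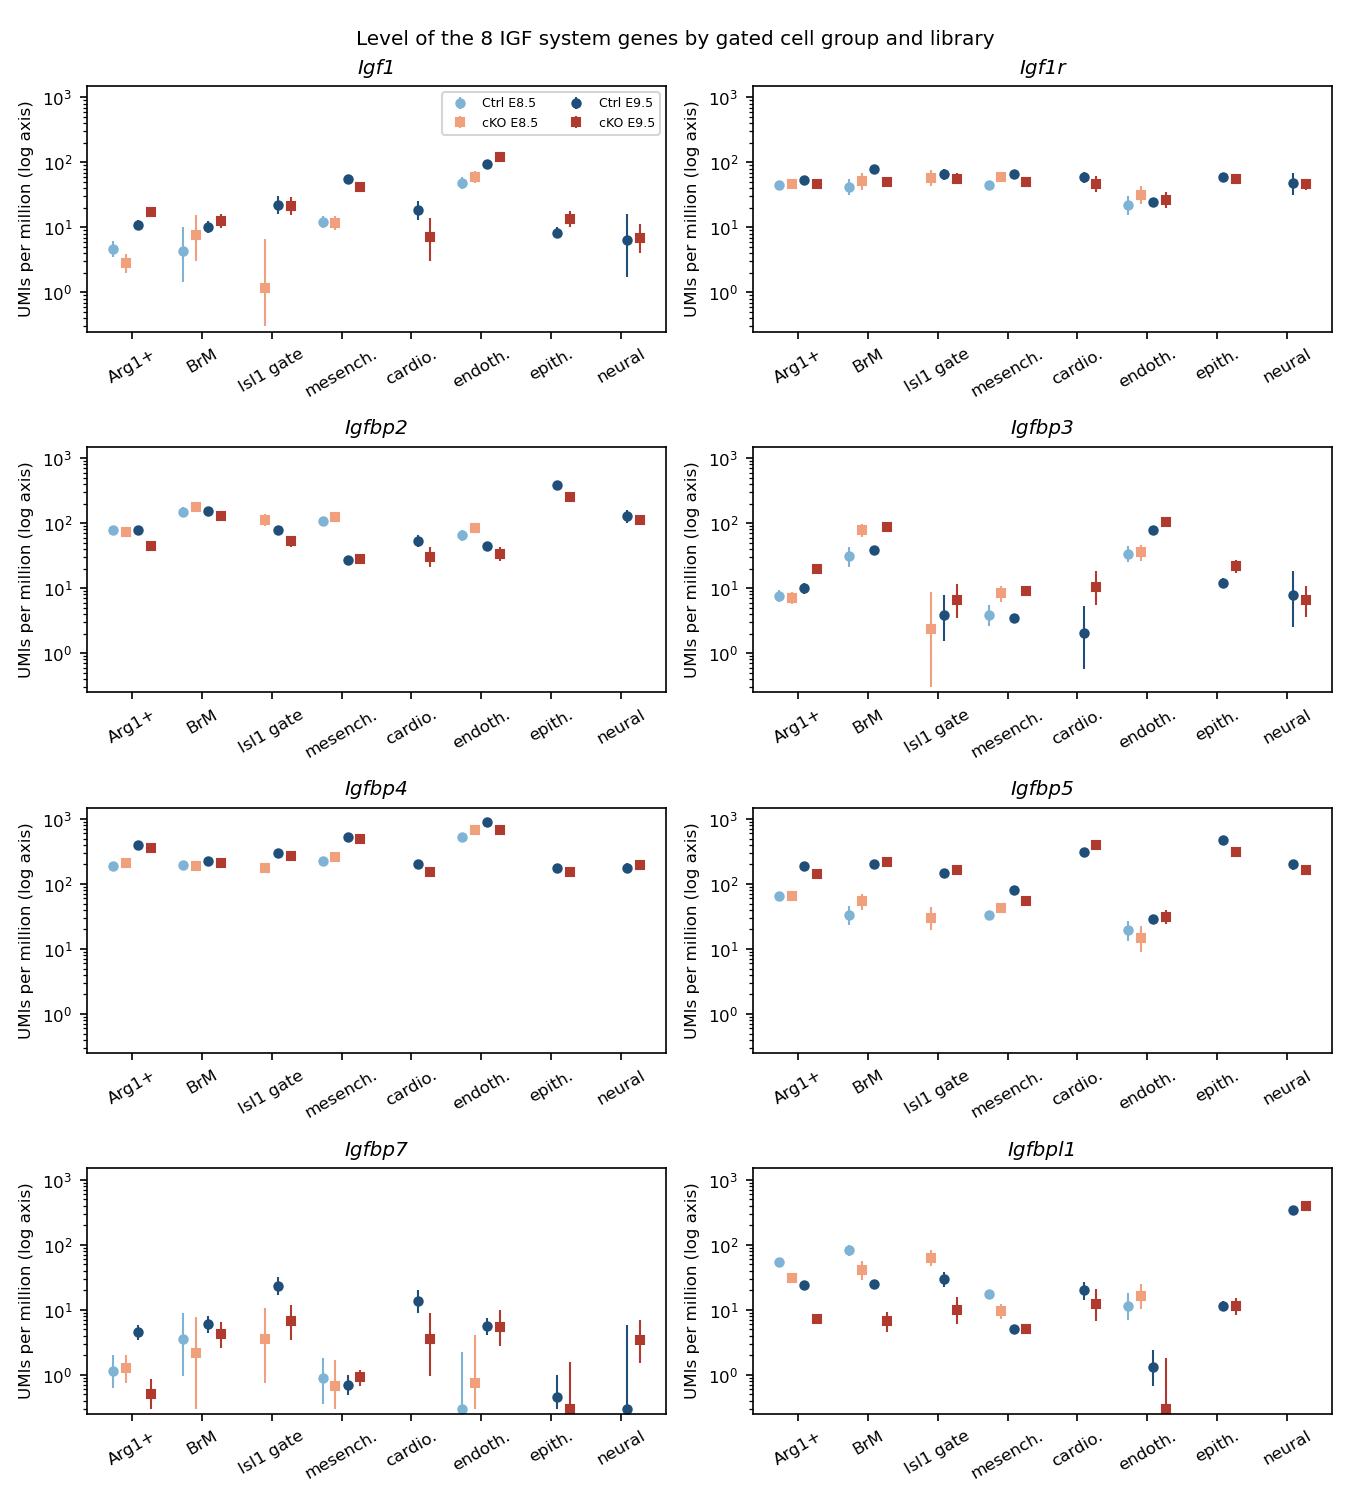
Level of each gene (UPM, log axis) in 8 gated cell groups with at least 30 cells, as 1 point per library with its 95% counting interval, circles for Ctrl and squares for cKO, with counts of 0 and interval ends below 0.3 drawn at 0.3. Igf1 and Igfbp4 peaked in endothelial-like cells, and Igfbpl1 in neural-like cells of E9.5 at 345.4 and 400.3 UPM.

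Igf1, the ligand (chromosome 10, 87858265 to 87937047, GRCm38.p6), was highest in endothelial-like cells of all 4 libraries. Its level there was 48.4 and 60.6 UPM at E8.5 and 94.99 and 122.1 UPM at E9.5. Mesenchyme-like cells came next at 12.2, 11.7, 55.3 and 41.9 UPM, apart from the endothelial-like level by more than counting error in each library. At E9.5, 52.7% of endothelial-like Ctrl cells thinned to 10000 UMIs held an Igf1 UMI (interval 47.6 to 57.8, n = 383 cells), and 61.6% of cKO cells did (51.3 to 71.2, n = 99 cells). Without thinning the shares were 69.9% in both. Neural-like cells set the background, with 6.1% of 99 thinned cKO cells positive at E9.5, where the median depths were 16884 UMIs for endothelial-like and 18356 for neural-like cells.

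Igf1 rose between stages in mesenchyme-like cells of Ctrl, 4.52-fold (log2 2.18, interval 1.88 to 2.49), where 16.2% of all tested genes were at least 2-fold from the median gene. In Arg1-positive mesoderm it went from 4.6 to 10.97 UPM (log2 1.24, 0.77 to 1.73), which is 0.90 above the median gene and short of 2-fold. Between genotypes it went both ways at E9.5. In Arg1-positive mesoderm it was 10.97 UPM in Ctrl and 17.3 in cKO, 0.91 above the median gene on the log2 scale, and in epithelial-like cells 8.3 and 13.6, 0.92 above it, though with thinned cells the log2 ratio in epithelial-like cells was -0.15. In cardiomyocyte-like cells it fell from 18.7 to 7.0 UPM on 36 and 8 UMIs, -1.21 relative to the median gene (interval of the log2 ratio -2.73 to -0.29), too few for a minimum of 50 UMIs. At E8.5, where the libraries share 1 gene table, Arg1-positive mesoderm had 4.6 UPM in Ctrl and 2.8 in cKO (log2 -0.71, -1.35 to -0.09), so the E8.5 and E9.5 differences lay on opposite sides of the median gene. The antisense gene Igf1os, which overlaps Igf1, had at most 12 UMIs in a library.

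Igf1r, the receptor (chromosome 7, 67952257 to 68233668), was the most even of the 8 genes. Across the groups it ranged 2.04-fold in Ctrl E8.5, 1.88-fold in cKO E8.5, 3.23-fold in Ctrl E9.5 and 2.13-fold in cKO E9.5. The lowest level in every library was that of endothelial-like cells, at 22.4, 31.8, 24.3 and 26.4 UPM. Thus the group with the most Igf1 had the least Igf1r. Arg1-positive mesoderm stood at 45.7, 46.4, 52.8 and 46.4 UPM. Neither genotype nor stage moved Igf1r by 2-fold from the median gene in any group compared. Its widest genotype differences were 0.46 relative to the median gene in endothelial-like cells at E8.5 (interval of the log2 ratio -0.16 to 1.18), -0.42 at E9.5 in the BrM-like group, where the level was 78.6 UPM in Ctrl and 49.9 in cKO, and 0.38 in mesenchyme-like cells at E8.5, where it was 44.8 and 59.7.

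Igfbp4 (chromosome 11, 99040005 to 99052655), which binds both IGFs and is cut by the protease Pappa, was again highest in endothelial-like cells, with 535.9 and 678.6 UPM at E8.5 and 882.8 and 683.7 at E9.5. Between stages of Ctrl it stayed within 2-fold of the median gene in all 4 groups compared. The level went from 187.0 to 397.2 UPM in Arg1-positive mesoderm (log2 1.09, 1.01 to 1.16), from 226.1 to 532.0 in mesenchyme-like cells (log2 1.23, 1.16 to 1.30) and from 535.9 to 882.8 in endothelial-like cells (log2 0.72). BrM-like cells had 194.3 and 227.2 UPM, -0.08 relative to the median gene. Genotype differences were small in each group, the widest being 0.35 relative to the median gene in neural-like cells at E9.5.

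Igfbp5 (chromosome 1, 72858065 to 72874865) lies next to Igfbp2 and encodes a binding protein that attaches to extracellular matrix. Of Igfbp2 to Igfbp5 it had the largest stage ratios in Arg1-positive mesoderm and BrM-like cells. In Arg1-positive mesoderm it stood at 64.9 and 65.9 UPM at E8.5 and at 190.5 and 142.6 at E9.5. The E9.5/E8.5 ratio in Ctrl was 2.94-fold there (log2 1.55, 1.43 to 1.68), against 11.7% of all tested genes at least 2-fold from the median gene. BrM-like cells went from 33.4 to 199.8 UPM in Ctrl, a 5.98-fold rise (log2 2.58, 2.12 to 3.08), past 98.9% of tested genes, where 15.9% were at least 2-fold from the median gene. Both E9.5 libraries lay above both E8.5 libraries in these 2 groups and in mesenchyme-like cells, with no overlap of their intervals. In mesenchyme-like cells the levels were 33.2, 42.4, 79.7 and 54.9 UPM, and the Ctrl stage ratio was short of 2-fold from the median gene. The share of all genes separated in this way is not given here. Endothelial-like cells were lowest in each library, between 14.8 and 31.4 UPM.

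The E9.5 genotype difference of Igfbp5 depended on the group. Epithelial-like cells had 477.9 UPM in Ctrl and 305.4 in cKO (-0.44 relative to the median gene), and mesenchyme-like cells 79.7 and 54.9 (-0.34). Cardiomyocyte-like cells had 305.0 in Ctrl and 402.2 in cKO (0.61 above the median gene), and BrM-like cells 199.8 and 219.4 (0.37 above). None of these reached 2-fold.

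Igfbp2 (chromosome 1, 72824480 to 72852474), a secreted binding protein common in embryonic epithelium, was highest in epithelial-like cells at E9.5, with 391.7 UPM in Ctrl and 251.1 in cKO. Among mesodermal groups BrM-like cells had most, at 150.3, 175.3, 156.6 and 127.5 UPM. In mesenchyme-like cells the level was 108.9 and 122.4 UPM at E8.5, but 27.2 and 27.8 at E9.5. Hence in Ctrl it fell 4.01-fold between stages there (log2 -2.003, -2.13 to -1.87), below all but 1.06% of tested genes, while Arg1-positive mesoderm had 77.6 and 78.4 UPM. At E9.5 the Arg1-positive mesoderm of cKO was lower, 43.8 UPM against 78.4 in Ctrl (log2 -0.84, -0.96 to -0.72, and -0.59 relative to the median gene), whereas at E8.5 the levels were 77.6 in Ctrl and 74.0 in cKO (-0.07, -0.20 to 0.06).

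Igfbp3 (chromosome 11, 7206086 to 7215498), which carries most circulating IGF after birth and also acts locally, was the 1 member called higher in cKO libraries. Its RefSeq promoter window (GRCm38.p6) holds the letters TATATA, as 5.67% of 32851 windows do on either strand, and the window of 300 bases, from 250 before to 50 after the start, is printed with these letters in capitals because Igfbp3 was above 2-fold in 2 or more groups at both stages. The window of Igfbp4, whose TATAAA occurs in 13.6% of windows, is set beside it as a binding protein that differed little between genotypes. Igfbp3 is shown from chr11:7213874-7214173 on the minus strand and Igfbp4 from chr11:99040994-99041293 on the plus strand. Each window lies at the start that RefSeq table uses, which is not the outermost end of either gene.
Igfbp3: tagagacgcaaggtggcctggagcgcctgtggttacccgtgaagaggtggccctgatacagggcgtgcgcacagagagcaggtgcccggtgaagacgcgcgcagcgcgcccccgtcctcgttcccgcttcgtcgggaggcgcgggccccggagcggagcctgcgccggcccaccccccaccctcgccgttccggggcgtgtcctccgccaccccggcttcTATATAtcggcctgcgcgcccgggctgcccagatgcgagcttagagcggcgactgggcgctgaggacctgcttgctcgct
Igfbp4: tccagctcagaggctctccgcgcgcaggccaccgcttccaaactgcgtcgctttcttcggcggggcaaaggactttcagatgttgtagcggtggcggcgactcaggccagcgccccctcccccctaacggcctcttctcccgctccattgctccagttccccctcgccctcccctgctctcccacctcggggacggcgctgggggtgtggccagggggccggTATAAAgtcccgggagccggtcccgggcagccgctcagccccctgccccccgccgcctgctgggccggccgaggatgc
These letters start 30 bases (Igfbp3) and 28 bases (Igfbp4) before the transcript start. The letters AGGTGTGA, known as the T-box element, which occur on either strand of 1.28% of all windows, were in 0 of the 8 windows listed for 7 of the genes. Its inner letters GGTGT were in the windows of Igfbp4 and Igfbp5 and in 41.6% of all windows. Igfbpl1 had no entry.

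In BrM-like cells Igfbp3 stood at 30.8 UPM (interval 21.4 to 42.8) and 78.5 (61.5 to 98.7) at E8.5, and at 38.7 (34.5 to 43.3) and 88.5 (80.4 to 97.2) at E9.5. Both cKO libraries were above both Ctrl libraries, with no overlap of the intervals. The ratio was 2.55-fold at E8.5 (log2 1.35, 0.75 to 1.98) and 2.29-fold at E9.5 (log2 1.19, 0.98 to 1.41), or 1.33 and 1.43 relative to the median gene, where 7% and 8.43% of all tested genes were at least 2-fold from the median in either direction. With the loose gate, which needs 1 marker fewer, the log2 ratios were 0.98 and 0.96. The intervals do not allow for uneven counts between cells. At E8.5 a single knockout cell held 19 of the 73 Igfbp3 UMIs of its group, against at most 4 of 35 in a Ctrl cell. At E9.5 the highest counts in a cell were 14 of 440 UMIs for cKO and 8 of 310 for Ctrl. Values without the cell of 19 UMIs were not calculated. The E8.5 separation and 2-fold call, and the choice of the Igfbp3 promoter for display, thus rest in part on 1 cell. The share of cells with a UMI followed. After thinning to 10000 UMIs, 20% of Ctrl E8.5 cells (10.8 to 32.3, n = 60 cells), 37.1% of cKO E8.5 (21.5 to 55.1, n = 35 cells), 25.1% of Ctrl E9.5 (20.8 to 29.9, n = 366 cells) and 37.0% of cKO E9.5 (30.8 to 43.4, n = 238 cells) were positive, and without thinning 40%, 54.3%, 39.8% and 50.2%. The E8.5 intervals overlapped and the E9.5 intervals did not. Mesenchyme-like cells of the same libraries, set beside them, were positive in 4.2%, 5.7%, 3.2% and 6.6% of thinned cells. Their median depths were 16641, 22092, 15452 and 15018.5 UMIs against 18252.5, 25530, 19558 and 19144 in BrM-like cells. Mesenchyme-like cells were the lowest group for Igfbp3 only in Ctrl E8.5, and they differed between genotypes themselves.

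The same direction was seen at lower levels in mesenchyme-like cells, which had 3.8 and 8.3 UPM at E8.5 and 3.5 and 9.0 at E9.5. These are ratios of 2.18-fold (log2 1.13, 0.44 to 1.83) and 2.62-fold (log2 1.39, 1.12 to 1.66), with 4.2% and 8.35% of tested genes called in those comparisons. The E8.5 value was 0.64 with the loose gate or with thinned cells. In Arg1-positive mesoderm the 2 stages differed. Ctrl and cKO had 7.6 and 7.1 UPM at E8.5 (log2 -0.10, -0.53 to 0.33), but 10.0 and 19.6 at E9.5 (log2 0.98, 0.69 to 1.27, and 1.22 relative to the median gene). Epithelial-like cells at E9.5 had 12.2 and 21.6 UPM (1.03 relative to the median gene, and 0.83 without that centring, below 2-fold). Endothelial-like cells had 33.9 and 35.4 UPM at E8.5 and 78.3 and 103.7 at E9.5, so they were short of 2-fold. Cardiomyocyte-like cells had 4 and 12 UMIs and Isl1-gated cells 7 and 12 at E9.5, under the minimum of 20. The BrM gate genes themselves summed to 264.6, 225.8, 429.9 and 335.1 UPM in BrM-like cells. Of the 5 genes, Myf5 and Myod1 were at 0 in both E8.5 libraries and none was at E9.5. The second heart field list fell from 172.2 to 59.1 UPM in the same cells at E9.5, Tdgf1 being the 1 of its 6 genes at 0 in both. Whether the makeup of the group plays a part in the Igfbp3 difference was not tested.

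**Figure D2:**
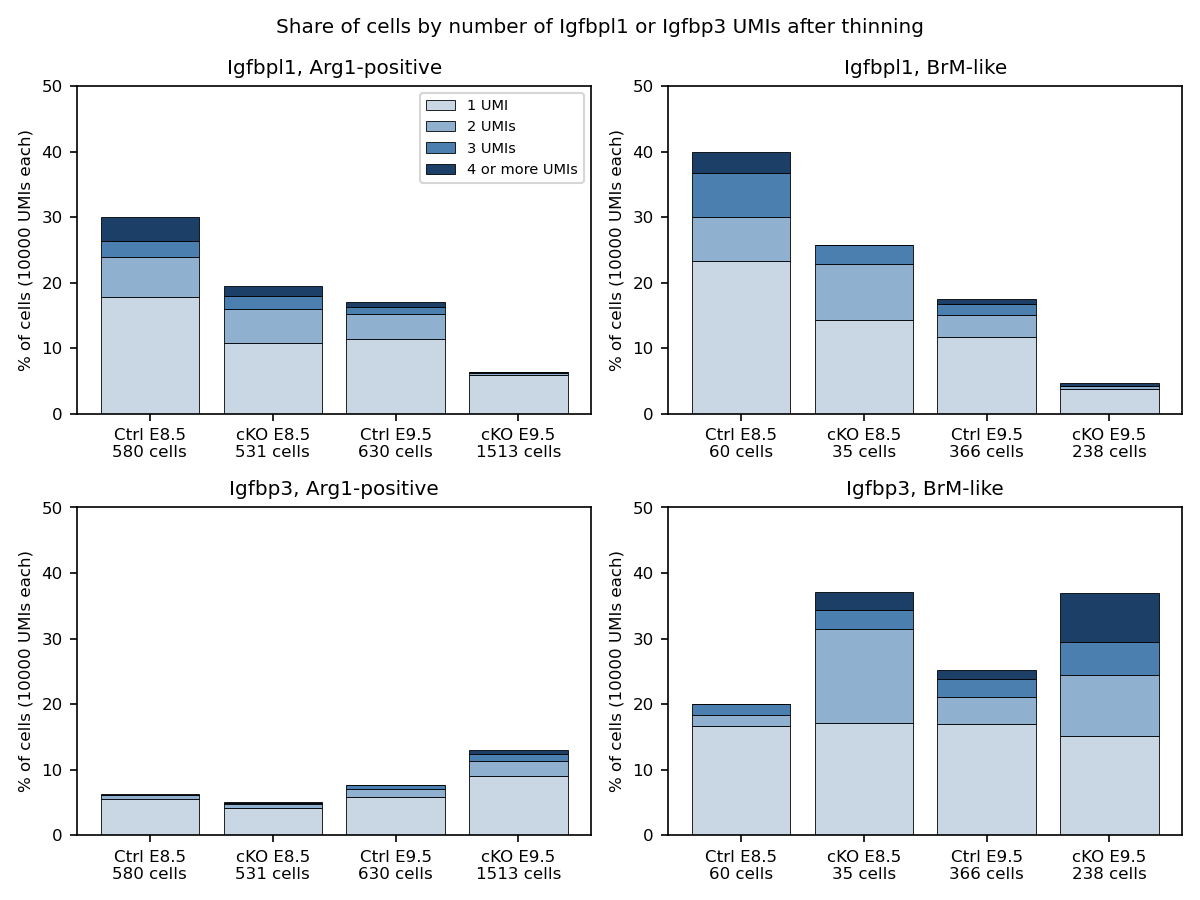
Percent of cells, each thinned to 10000 UMIs, with 1, 2, 3 or at least 4 UMIs of Igfbpl1 (top) or Igfbp3 (bottom) in Arg1-positive mesoderm (left) and BrM-like cells (right) of the 4 libraries. Positive cells were fewer for Igfbpl1 in cKO than in Ctrl of the same stage, and more frequent for Igfbp3 in BrM-like cells of cKO.

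Igfbp7 (chromosome 5, 77349240 to 77408045), a secreted relative found around vessels in many adult tissues, was sparse, and at E9.5 it was highest in Isl1-gated cells. It was 23.4 UPM in Ctrl and 6.7 in cKO, and 13.5 and 3.5 in cardiomyocyte-like cells, on 43, 12, 26 and 4 UMIs. Endothelial-like cells had 5.5 UPM in both E9.5 libraries and 0 and 1 UMIs at E8.5. In Arg1-positive mesoderm the counts were 13 and 18 UMIs at E8.5 (1.2 and 1.3 UPM) and 55 and 15 UMIs at E9.5 (4.5 and 0.51 UPM). So 1 of the 4 libraries was high. Against the Ctrl library of E9.5, cKO was 8.85-fold lower (log2 -3.14, -4.08 to -2.30), below all but 0.343% of tested genes, and after thinning 3.5% of 630 Ctrl cells and 0.595% of 1513 cKO cells held a UMI (3.9% and 0.87% without thinning). The share in mesenchyme-like cells was 0.45% and 0.75%, so the cKO share of Arg1-positive cells was no higher than theirs. Mesenchyme-like cells were not the lowest group of cKO, where 0 of 176 thinned epithelial-like cells were positive. Median depths were 17320 and 17072 UMIs in Arg1-positive and 15452 and 15018.5 in mesenchyme-like cells. In the same Arg1-positive cells the second heart field list summed to 339.9 UPM in Ctrl and 124.3 in cKO at E9.5 (0 and 1 of its 6 genes at 0), and the cardiomyocyte list to 302.3 and 142.7 (0 of 8 genes at 0 in both). Their part in the Igfbp7 difference was not tested. Isl1-gated cells, in which the cardiomyocyte list was 828.3 and 774.9 UPM, also had less Igfbp7 in cKO (log2 -1.81, -2.87 to -0.86), but with the loose gate the log2 ratio was 0.71, so this direction depends on the gate.

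Igfbpl1 (chromosome 4, 45809507 to 45826827) encodes a secreted relative known from neural progenitors and axons. Neural-like cells of E9.5 had by far its highest level, 345.4 UPM in Ctrl (36 cells) and 400.3 in cKO (113 cells), and 68.8% and 83.8% of thinned cells held a UMI (50 to 83.9, n = 32 cells, and 75.1 to 90.5, n = 99 cells). The few neural-like cells of E8.5 (9 and 10) had 4 and 2 UMIs, and Dcx and Nhlh1, markers of young neurons that are not in the gate, were at 0 in them. Ncam1, also outside the gate, was higher inside than outside in both E8.5 libraries, on 6 and 5 UMIs. It stood at 21.7 against 18.1 UPM in Ctrl and 18.3 against 14.3 in cKO. Among groups of at least 30 cells in Ctrl E8.5 the order was BrM-like at 81.8 UPM, Arg1-positive at 54.8 and mesenchyme-like at 17.2, each apart from the next by more than counting error. Mesenchyme-like and endothelial-like cells (11.5 UPM) were not apart. In cKO E8.5 the Isl1-gated group, with 34 cells, had most at 63.1 UPM, not apart from BrM-like cells at 40.9, and the 26 Isl1-gated cells of Ctrl E8.5 had 137.0 UPM. By E9.5 Ctrl levels were lower in each of the 4 groups compared. BrM-like cells had 25.1 UPM, Arg1-positive 23.7, mesenchyme-like 5.1 and endothelial-like 1.3, and all 4 differences passed 2-fold against the median gene, with log2 ratios of -1.70, -1.21, -1.76 and -3.12. In endothelial-like cells 16.6% of tested genes did so.

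The values that helped to choose the genes were those of Arg1-positive mesoderm, with 54.8 UPM (50.6 to 59.3) and 30.9 (28.1 to 34.0) at E8.5, and 23.7 (21.0 to 26.6) and 7.2 (6.3 to 8.3) at E9.5. The cKO library was lower at each stage, by 1.77-fold at E8.5 (log2 -0.83, -1.01 to -0.65) and by 3.28-fold at E9.5 (log2 -1.71, -1.98 to -1.45). Relative to the median gene this is -0.85 and -1.47, so only the E9.5 value passed 2-fold. Positive cells were 30%, 19.4%, 17.0% and 6.4% after thinning, and 38.7%, 31.8%, 24.8% and 11% without it, the endothelial-like background being 10.96%, 15.4%, 1.6% and 0 of 99 cells, which allows a share of up to 3.03%. Median depths were 17605.5, 25292, 17320 and 17072 UMIs in Arg1-positive and 19929.5, 24624, 19926.5 and 16884 in endothelial-like cells. In cKO E8.5 Igfbpl1 was lower in mesenchyme-like than in endothelial-like cells (9.5 and 16.2 UPM). There 5.7% of 262 thinned mesenchyme-like cells were positive, at a median depth of 22092 UMIs. The neural list, marking the cells with the highest Igfbpl1, summed to 9.8, 9.6, 14.4 and 17.6 UPM in Arg1-positive mesoderm, with 2, 3, 2 and 0 of its 8 genes at 0. Other lists moved in the same cells at E9.5. The second heart field list went from 339.9 UPM in Ctrl to 124.3 in cKO, the cardiomyocyte list from 302.3 to 142.7 and the somite list from 105.9 to 232.4, with Tdgf1 in cKO the 1 gene of the 3 lists at 0. Their part in the Igfbpl1 difference was not tested.

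Other groups of the same libraries are given as values only. BrM-like cells stood at 81.8, 40.9, 25.1 and 6.6 UPM, ratios of 2.001-fold (log2 -1.001, -1.59 to -0.44) and 3.78-fold (log2 -1.92, -2.50 to -1.38), the E8.5 value being -0.60 with the loose gate. Isl1-gated cells of E9.5 had 29.4 UPM in Ctrl and 10.0 in cKO (log2 -1.55, -2.41 to -0.76). Mesenchyme-like cells were lower in cKO at E8.5 (17.2 and 9.5 UPM, log2 -0.86, -1.33 to -0.40), but had 5.07 and 5.05 UPM at E9.5 (-0.26 to 0.26). No such difference was seen at E9.5 in epithelial-like cells (11.4 UPM in both) or in neural-like cells, which were 0.40 above the median gene in cKO. Endothelial-like cells had 11 and 0 UMIs, where a difference was not detectable. Over all cells of E9.5 the level was 15.7 UPM in Ctrl and 16.3 in cKO. Neural-like cells supplied 14.7% of the Igfbpl1 UMIs of Ctrl E9.5 and 53.9% of those of cKO E9.5, and Arg1-positive mesoderm 287 of 1482 and 211 of 1709 UMIs. Cells passing 2 compartment gates, which were set aside, held 244 and 144 of them. The neighbouring gene Stra6l, which overlaps Igfbpl1, had at most 3 UMIs in a library.

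**Figure D3:**
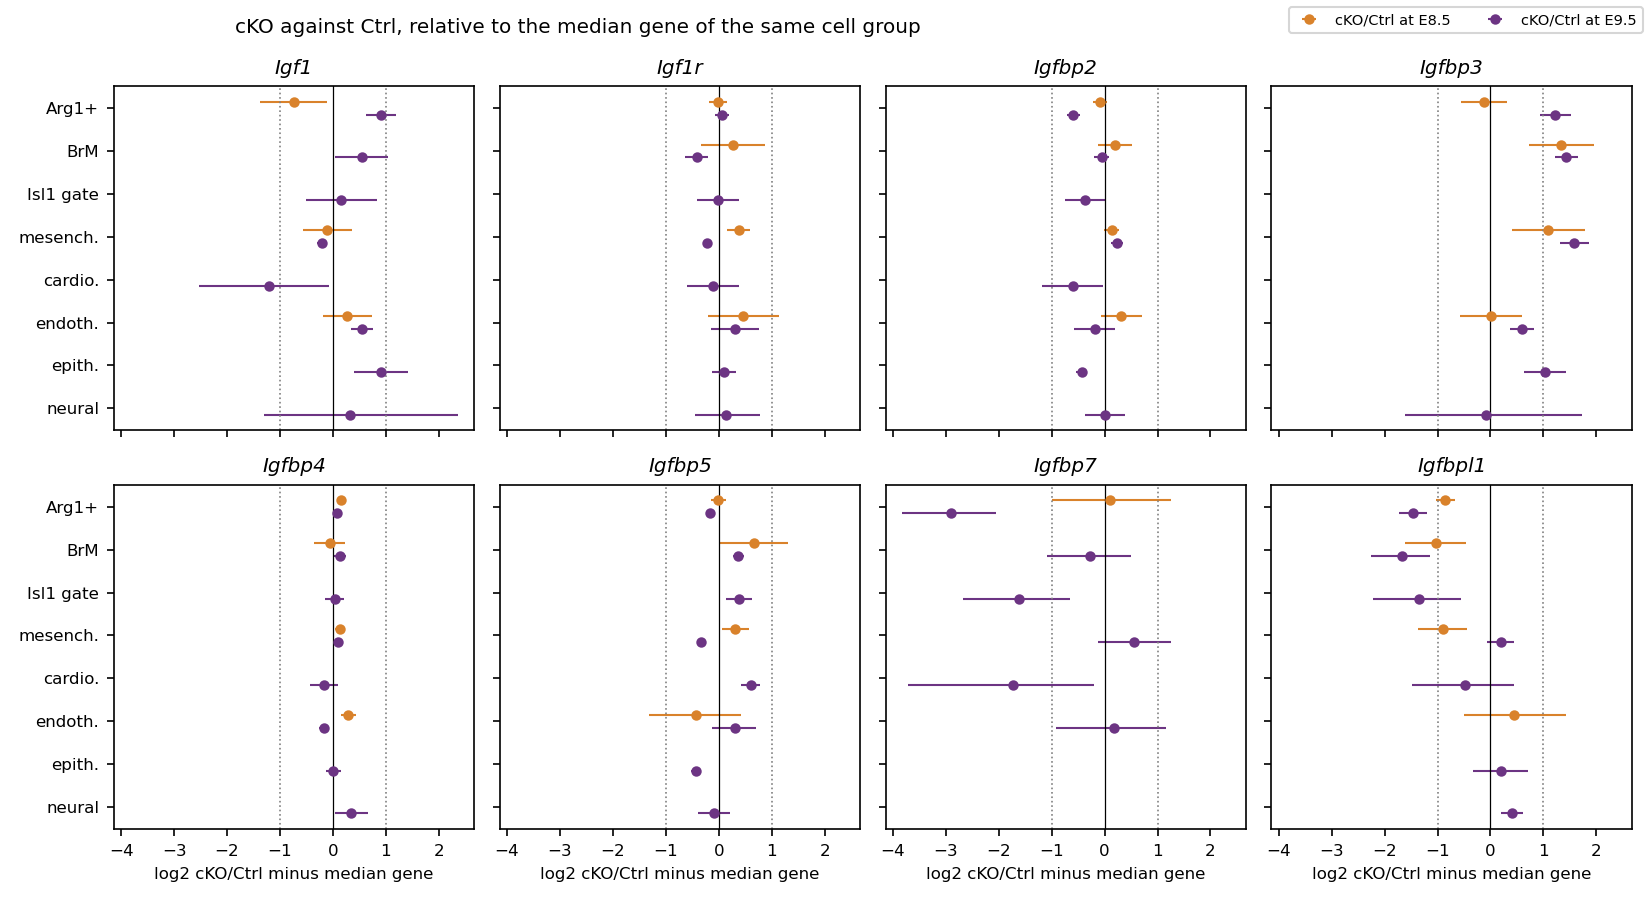
Log2 cKO/Ctrl ratio minus that of the median gene of the same group, with 95% counting intervals, for each gene with at least 20 UMIs over both libraries, orange for E8.5 and purple for E9.5, and dotted lines at 2-fold. Igfbp3 lies to the right in BrM-like and mesenchyme-like cells at both stages, and Igfbpl1 to the left in Arg1-positive and BrM-like cells.

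The members called different are counted here beside the share of all tested genes. At E8.5 they were 0 of 8 in Arg1-positive mesoderm (4.24% of all tested genes), 2 of 6 tested in BrM-like cells (Igfbp3 and Igfbpl1, against 7%), 1 of 7 in mesenchyme-like cells (Igfbp3, against 4.2%) and 0 of 7 in endothelial-like cells (5.32%). At E9.5 they were 3 of 8 in Arg1-positive mesoderm (Igfbp3, Igfbp7 and Igfbpl1, against 8.64% of all tested genes), 2 of 8 in BrM-like cells (against 8.43%), 2 of 7 in Isl1-gated cells (Igfbp7 and Igfbpl1, against 6.5%) and 1 of 8 in mesenchyme-like cells (against 8.35%). Cardiomyocyte-like cells had 2 of 7 (Igf1 and Igfbp7, against 8.22%), epithelial-like cells 1 of 7 (Igfbp3, against 7.84%), and endothelial-like (7.68%) and neural-like cells (12.3%) 0 of 7 each. As the genes were chosen with such values known, nothing is read from these counts.

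Inside the Arg1-positive mesoderm several genes varied with the number of Arg1 UMIs in a cell. At E9.5 Igf1 was lower in cells with 10 or more Arg1 UMIs than in cells with 1. In cKO E9.5 it was 27.1 UPM at 1 Arg1 UMI (507 cells), 25.7 at 2, 16.9 at 3 to 4, 6.9 at 5 to 9 and 2.3 at 10 or more (146 cells). In Ctrl E9.5 it was 19.1 (222 cells), 7.4, 11.4, 3.8 and 5.6 (62 cells) in the same bins, an uneven series. Median depth rose little over these bins, from 16848 to 19859 UMIs in cKO and from 16779.5 to 19617 in Ctrl. The mesenchyme list, whose cells have more Igf1, fell from 700.0 to 472.9 UPM in Ctrl and from 665.4 to 629.2 in cKO at E9.5, none of its 7 genes being at 0, and its part in the trend was not tested. The bin of 10 or more held 13 cells in Ctrl E8.5. Igfbp5 was higher in cells with 5 to 9 Arg1 UMIs than in cells with 1 in all 4 libraries. It went from 52.7 to 84.0 UPM in Ctrl and 41.2 to 81.6 in cKO at E8.5. At E9.5 it went from 150.8 to 226.8 in Ctrl and 112.5 to 151.8 in cKO at 10 or more. Igfbp4 fell over the same E9.5 bins, from 434.3 to 364.0 in Ctrl and 425.8 to 276 in cKO. Igfbp2 rose in Ctrl E9.5 (63.7 to 106.5) but not in the 2 E8.5 libraries (91.2 to 70.7 at 5 to 9 Arg1 UMIs in Ctrl, and 102.6 to 64.8 in cKO). Igfbpl1 was lower in cKO than in Ctrl of its stage in all 5 bins at both stages. Among cells with 5 to 9 Arg1 UMIs it was 64.0 and 31.4 UPM at E8.5, and 33.5 and 10.6 at E9.5. The bins split the same cells whose values helped to choose Igfbpl1, so they add no separate evidence.

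**Figure D4:**
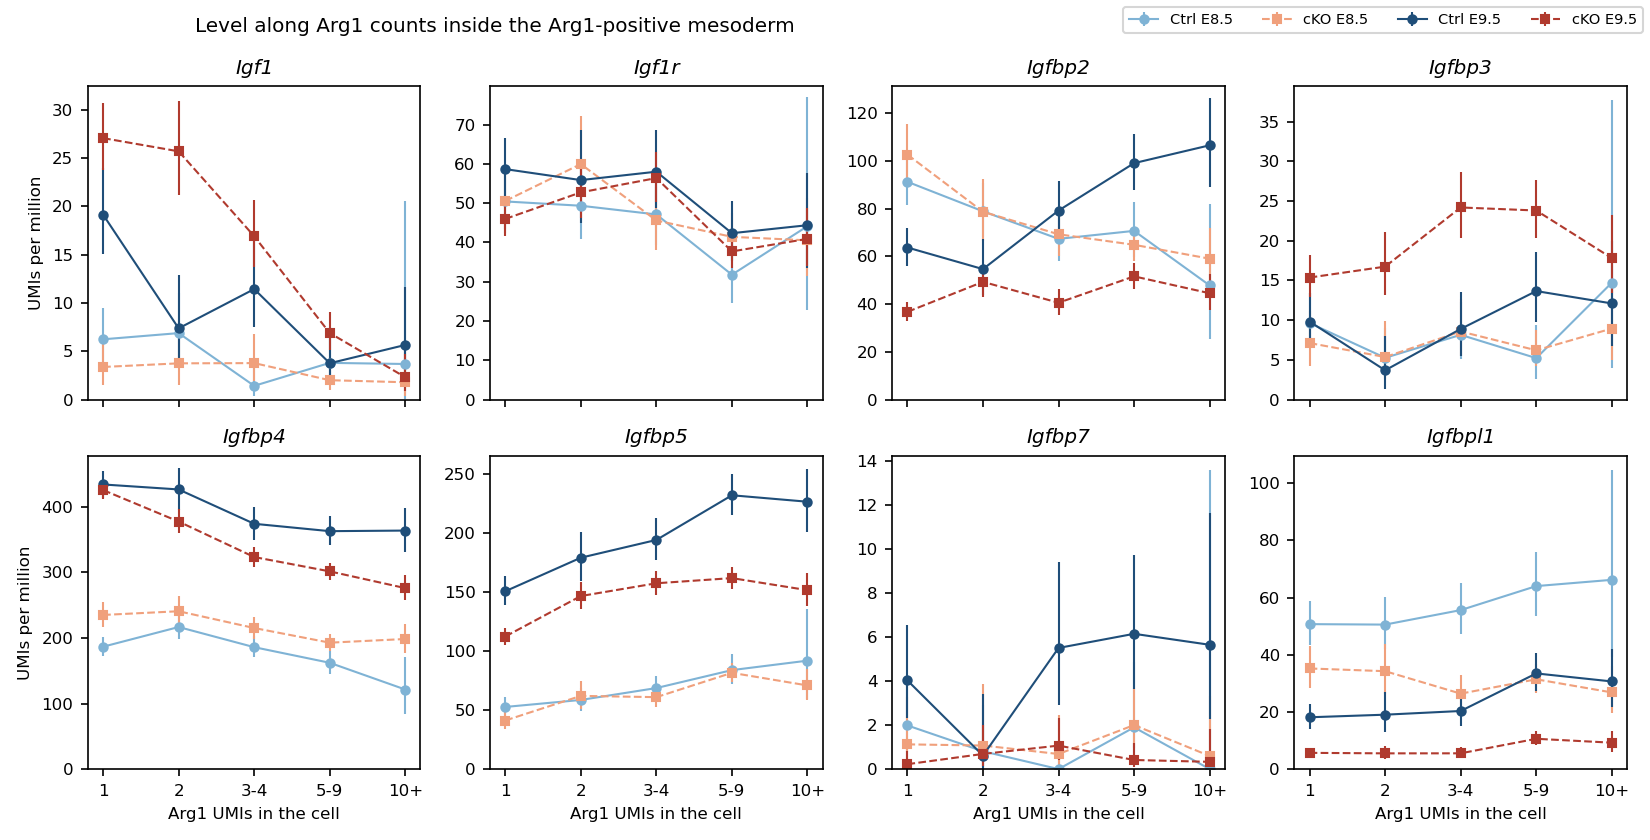
Level (UPM) of each gene in Arg1-positive cells binned by their number of Arg1 UMIs, with 95% counting intervals, circles and solid lines for Ctrl and squares and dashed lines for cKO. Igf1 is highest at 1 Arg1 UMI in both E9.5 libraries, falling bin by bin in cKO and unevenly in Ctrl. Igfbpl1 of cKO lies below Ctrl of the same stage in each bin, in the same cells whose values helped to choose it.

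The other genes of the pathway were a list of 22: the ligand Igf2, receptors, remaining binding proteins, the proteases Pappa and Pappa2 with their inhibitors Stc1 and Stc2, and adaptors, kinases and mRNA-binding proteins downstream. In Arg1-positive mesoderm 0 of 18 tested were called at E8.5 (against 4.24% of all tested genes), with a median log2 ratio of 0.17 against 0.03 for all genes. At E9.5, 0 were higher and 3 of 17 lower (Igf2, the adaptor Irs2 and Stc2), against 8.64% of all tested genes called in either direction. The median was -0.34 against -0.25. BrM-like cells had 2 of 13 higher at E8.5, namely Pappa and the kinase Akt1, against 7% of all tested genes called. At E9.5 they had 1 of 17 higher, again Pappa, at 1.6 UPM in Ctrl and 6.6 in cKO on 13 and 33 UMIs. They had 1 lower, Igf2, and 8.43% of all tested genes were called. Mesenchyme-like cells had 0 of 18 at E8.5 (against 4.2%). Of 19 at E9.5 they had 1 higher (Irs4, on 6 and 14 UMIs) and 2 lower (Igf2 and Pappa2), against 8.35%. Nothing is read from these counts. Between stages in Ctrl, Stc2 fell in each of the 4 groups compared, from 15.7 to 4.0 UPM in Arg1-positive mesoderm, from 20.2 to 6.2 in BrM-like cells, from 15.9 to 0.80 in mesenchyme-like cells and from 26.0 to 10.8 in endothelial-like cells.

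Igf2, the main embryonic ligand, needs separate mention. Over all cells it was 159.3 and 264.8 UPM at E8.5, and 271.3 and 9.3 at E9.5. Its low value was found in each of the 8 groups compared at E9.5, with log2 cKO/Ctrl of -4.64 in Arg1-positive mesoderm, -5.01 in BrM-like and -4.89 in mesenchyme-like cells. That library alone was counted on another gene table. The table lists Gm49394, absent from the other 3 tables and with 1 UMI, and whether it shares reads with Igf2 was not tested. The E9.5 calls of Igf2 above are uncertain for this reason. At E8.5, where both libraries share a table, Igf2 was 147.8 UPM in Arg1-positive mesoderm of Ctrl and 254.1 of cKO (log2 0.78), short of 2-fold.

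Likeness between genes was taken over 16 profiles, made of the 4 groups with at least 30 cells in each of the 4 libraries. These were Arg1-positive mesoderm, BrM-like, mesenchyme-like and endothelial-like cells. Neural-like cells, where Igfbpl1 was highest, were thus left out, as were epithelial-like, cardiomyocyte-like and Isl1-gated cells. Within these groups the genes most like Igfbpl1 by Pearson's r of log2 levels (10 UPM added) were Fgf8 (0.92), Nrg1 (0.88) and Paip1 (0.87). Those most like Igfbp3 were Nrp2 (0.90), H19 (0.89) and Mcur1 (0.88). Igf1 was closest to Gng12 (0.97), Tax1bp3 (0.96) and Mbnl2 (0.95), and Igfbp4 to Akap12 (0.98), Lxn (0.97) and again Mbnl2 (0.97). Igfbp5 was closest to Zfp219 (0.95), Poc1b (0.93) and Mapk8ip1 (0.92), Igfbp2 to Peg12 (0.91), Gar1 (0.90) and Rab11fip1 (0.90), Igf1r to Pknox2 (0.95), Jam3 (0.94) and H2afy2 (0.93), and Igfbp7 to Dgkd (0.85), Mfge8 (0.85) and Pla2g16 (0.84). Within the members, Igf1 and Igfbpl1 were opposed over these profiles (r = -0.79). The profiles share their 4 libraries and are a description.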

How the data were processed

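Raw UMI counts per gene and barcode of 4 droplet libraries were used, as deposited by the authors, who had processed the reads with Cell Ranger (3.1.0 in the submitters' processing notes, 3.0.2 per the file headers of both E8.5 matrices) on mm10. No normalization or annotation was in those counts. The counting strand is not given in the sources used here. The cKO E9.5 table listed 31053 genes and the others 27998, and 27514 shared identifiers were kept, holding 99.4% to 99.9% of the UMIs.

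Every deposited barcode was kept. Cells passing 2 compartment gates were set aside as mixed, which also served against doublets, and no doublet caller was run. UMIs were summed per gated group and library. Intervals were exact Poisson (levels), exact conditional binomial (ratios) and Clopper-Pearson (shares) at 95%, and 3 UMIs was the floor for ratios. Shares used cells thinned to 10000 UMIs, shallower cells left out (seed 1). Ratios and calls were tested on simulated sums. Python 3.11.15, numpy 2.4.6, scipy 1.17.1, pandas 2.3.3, matplotlib 3.10.9 and, for scaling factors, edgeR 4.0.16 in R 4.3.3 were used. The named genes were the 8 members, the pathway list, and for each member the 3 most similar genes among those with at least 500 UMIs. Members, gates and lists were chosen with earlier results of these data known. Alternatives were other scalings, gates, cell filters and UMI minimums.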

Additional observations from a re-analysis of the deposited data

Results flagged for a closer look

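Igfbp5 was marked because its cKO/Ctrl ratio at E9.5 lay on opposite sides of the median gene in different cell groups, with counting intervals at least 0.25 away from it on the log2 scale. The difference of the log2 ratios was 0.67 between BrM-like and mesenchyme-like cells, 0.78 between BrM-like and epithelial-like cells, 0.94 between cardiomyocyte-like and mesenchyme-like cells and 1.05 between cardiomyocyte-like and epithelial-like cells. With 1 library per genotype these differences were not tested. No group had enough libraries for a search for outlying samples.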

How the results depend on the processing

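No paired analysis was possible because each group has 1 library, and for the same reason no replicate could be left out. Igfbpl1 was lower in cKO Arg1-positive mesoderm under each alternative tried. The log2 ratio was -1.09 at E8.5 in cells with at least 5 Arg1 UMIs, an alternative chosen after seeing the data. All these alternatives reuse the libraries whose values helped to choose Igfbpl1, so they add no separate evidence. Igfbp3 in BrM-like cells at E9.5 had a log2 ratio of 1.43 with the median gene subtracted and 0.96 with the loose gate (1 marker fewer). The number of members at least 2-fold from the median gene changed as follows, changes by a smaller factor not being listed. Such a case is Igfbp3 in Arg1-positive mesoderm at E9.5 (9.98 UPM in Ctrl and 19.6 in cKO). With no median subtracted it fell short of 2-fold and is not counted. At E8.5 it became 1 in Arg1-positive cells with at least 5 Arg1 UMIs, 1 in BrM-like cells with at least 50 UMIs or with cells weighted equally and 0 with the loose gate, 0 in mesenchyme-like cells with thinned cells and 2 with cells weighted equally, and 1 in endothelial-like cells with thinned cells. At E9.5 it became 1 in Isl1-gated cells with the strict gate, the loose gate or thinned cells, 2 in mesenchyme-like cells with the loose gate, 0 in cardiomyocyte-like cells with at least 50 UMIs and 1 with thinned cells, and 1 in neural-like cells with the loose gate. In epithelial-like cells it became 0 with TMM factors or with no median subtracted, and 2 with the strict gate or without barcodes over 2 times the median UMIs. Small differences turned with the scaling. For TMM factors and the median gene subtracted, the E9.5 genotype log2 ratio became 0.076 and 0.061 for Igf1r and 0.089 and 0.074 for Igfbp4 in Arg1-positive mesoderm, and 0.091 and 0.10 for Igfbp4 in mesenchyme-like cells, and the stage ratio of Igf1r in Arg1-positive mesoderm became -0.10 and -0.13. With the median gene subtracted, Igfbp4 became 0.012 in epithelial-like cells (genotype) and -0.076 in BrM-like cells (stage). With the loose gate, Igfbp7 in Isl1-gated cells at E9.5 became 0.71 and the stage ratio of Igfbp5 in endothelial-like cells -0.19, and with thinned cells Igf1 in epithelial-like cells at E9.5 became -0.15. The cause was not tested. Groups under 30 cells under an alternative gave no value, among them BrM-like cells of E8.5 with the strict gate. Depth limits Igfbp7, which rests on few UMIs.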
